A study of Mus musculus with 8 samples.

Results

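Granzymes and their partner molecules are what cytotoxic lymphocytes use to kill, and 9 such genes of the 32286 measured were followed across the cells of mouse lung adenocarcinomas: the granzymes Gzma, Gzmb, Gzmc, Gzme and Gzmk, the pore former Prf1, the granule membrane protein gene Nkg7, the death ligand Fasl and the cytokine Ifng. They were taken by symbol from the gene tables of the 4 libraries, and their unique molecular identifiers (UMIs, each standing for 1 captured transcript) were summed within each library over cell classes defined by marker genes. The tumours came from KPC mice, animals of the KP lung adenocarcinoma model in which tumours are started by intratracheal lentivirus. In the control group (Con) the virus carried a dRNA, a guide for CRISPR activation, directed at Tomato, and in the mA1 group a dRNA directed at Malat1, a long non-coding RNA. The study asked whether raised Malat1 changes the surroundings of the tumour. Activation was aimed at the tumour cells, and both groups carried the activation system. The largest tumours were dissected 16 weeks after initiation, dissociated, depleted of dead cells and profiled by single-cell RNA sequencing, 4 tumours per group. Each group had 2 libraries and each library pooled 2 tumours marked with hashtag antibodies to CD45 and MHC class I. The labels do not say whether the tumours of a group came from separate mice, nor do they spell out the alleles, so p-values measure the spread between these tumours and libraries only.

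The granule pathway works by contact. A natural killer (NK) cell or cytotoxic T cell releases granules onto a target, perforin opens a path into it, and granzymes, which are serine proteases, cleave proteins inside and start its death. Fas ligand kills by a separate route through the receptor Fas, and interferon-gamma acts on neighbouring cells, among others by raising antigen presentation. In mouse lung, NK cells and effector CD8 T cells are the known carriers of this machinery, while gamma-delta T cells of the interleukin-17 type are not known for it.

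The 9 genes are protein-coding and lie on 5 chromosomes (GRCm38.p6, RefSeq). Gzme (chr14:56117619-56120625), Gzmc (chr14:56231397-56241647) and Gzmb (chr14:56258836-56262334) belong to 1 gene cluster, which also holds mast cell proteases. Gzma (chr13:113093824-113100981) and Gzmk (chr13:113171630-113180965) are neighbours on another chromosome. Prf1 (chr10:61297751-61304684), Ifng (chr10:118441046-118445894), Nkg7 (chr7:43437138-43438246) and Fasl (chr1:161780691-161788495) stand apart from each other. Start-site sequences are shown for genes of the chromosome 14 cluster because near neighbours there were detected in different cells (Gzme in epithelial cells, Gzmc in a few lymphocytes, Gzmb in NK cells), and for Gzma and Prf1 as the genes that Gzmb accompanied in NK cells. Each runs from 250 bases before to 50 bases after the RefSeq start: Gzme chr14:56120576-56120875, its near-identical paralogue Gzmd chr14:56132544-56132843, Gzmc chr14:56234608-56234907, Gzmb chr14:56262285-56262584 and Gzma chr13:113100932-113101231, all on the minus strand, and Prf1 chr10:61297586-61297885 on the plus strand. For Gzmc and Prf1 the start used lies inside the gene span given above, not at its outer end, and distances are counted from the start used. Capitals mark 2 searched motifs on either strand, the RUNX core TGTGGT and an ETS core CNGGAAGT.
Gzme: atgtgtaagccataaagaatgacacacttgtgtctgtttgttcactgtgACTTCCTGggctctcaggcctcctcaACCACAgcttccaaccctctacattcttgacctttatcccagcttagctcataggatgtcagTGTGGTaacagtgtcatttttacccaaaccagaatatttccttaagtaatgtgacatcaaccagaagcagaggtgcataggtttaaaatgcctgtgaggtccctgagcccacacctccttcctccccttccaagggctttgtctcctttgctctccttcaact
Gzmd: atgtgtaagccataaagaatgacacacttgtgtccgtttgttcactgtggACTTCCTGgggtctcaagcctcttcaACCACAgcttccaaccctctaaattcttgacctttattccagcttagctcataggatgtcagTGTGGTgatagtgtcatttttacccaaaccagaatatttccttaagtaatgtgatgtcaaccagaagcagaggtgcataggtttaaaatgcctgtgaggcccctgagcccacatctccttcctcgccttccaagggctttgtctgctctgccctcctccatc
Gzmc: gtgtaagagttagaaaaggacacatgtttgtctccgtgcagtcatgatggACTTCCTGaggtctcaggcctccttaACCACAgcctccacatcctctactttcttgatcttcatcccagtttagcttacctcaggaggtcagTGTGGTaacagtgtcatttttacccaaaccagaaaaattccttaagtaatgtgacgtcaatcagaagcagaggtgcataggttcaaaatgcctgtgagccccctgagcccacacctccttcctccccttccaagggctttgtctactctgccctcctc
Gzmb: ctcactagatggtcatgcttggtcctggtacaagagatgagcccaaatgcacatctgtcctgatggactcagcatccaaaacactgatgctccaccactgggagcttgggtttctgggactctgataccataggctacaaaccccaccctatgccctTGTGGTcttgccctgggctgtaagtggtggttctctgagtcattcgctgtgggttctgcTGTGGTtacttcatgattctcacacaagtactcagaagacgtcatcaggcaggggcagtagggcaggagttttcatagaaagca
Gzma: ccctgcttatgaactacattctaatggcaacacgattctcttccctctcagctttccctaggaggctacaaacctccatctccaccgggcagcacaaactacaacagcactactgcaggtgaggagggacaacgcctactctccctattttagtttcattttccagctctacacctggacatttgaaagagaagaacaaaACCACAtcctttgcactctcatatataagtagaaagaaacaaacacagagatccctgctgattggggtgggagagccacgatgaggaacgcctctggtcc
Prf1: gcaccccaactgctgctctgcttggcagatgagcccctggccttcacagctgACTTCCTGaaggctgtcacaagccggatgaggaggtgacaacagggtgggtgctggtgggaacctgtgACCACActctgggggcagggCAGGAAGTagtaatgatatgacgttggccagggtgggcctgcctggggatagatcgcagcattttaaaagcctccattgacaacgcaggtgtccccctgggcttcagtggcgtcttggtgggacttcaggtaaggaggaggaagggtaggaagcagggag

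Gzme held 2 RUNX cores, 175 and 113 bases before its start, and an ETS core at 201. Gzmd had the same 3 matches each within 1 base of those distances, and Gzmc at 174, 108 and 200. In Gzmb the RUNX cores lay at 93 and 34 with no ETS core in the window. Of all 32851 mouse promoter windows of this length, 16.8% held a RUNX core, 1.81% held at least 2 and 9.53% held an ETS core. The Gzme window was 93.4% identical to that of Gzmd and 82.7% to that of Gzmc, against 43.8% for Gzmb, 41.1% for Gzma and 41.1% for Prf1. A RUNX core occurred in 6 of the 9 windows, an ETS core in 4 and a T-box core (GGTGTNA, 10.2% of all windows) in 2, those of Gzmk and Nkg7. The full cyclic AMP element TGACGTCA, found in 1.79% of windows, occurred in that of Gzmc. No searched motif was present in the Ifng window. These matches describe letters near the starts and were not tied to any binding measured here.

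The libraries held 48319272 to 74996867 UMIs in 4939 to 10168 barcodes, and 23774 cells were kept. Malat1 took 4.15% and 2.95% of the UMIs of tumour-like epithelial cells in Con libraries 1 and 2, and 2.52% and 4.49% in mA1 libraries 1 and 2. The groups overlapped, so the targeted transcript was not higher in both libraries labelled mA1, and Con and mA1 are used below as the labels give them. Con library 2 stood apart with a level of the sex-linked gene Xist of 1224 CPM (counts scaled to a common total, defined below), against 0.46 to 1.38 in the others. It also had 13.8% NK-like cells against 4.72% to 6.18%. Between 89 and 269 cell barcodes were shared by each pair of libraries. Single cells with a shared barcode numbered 1 to 4 per library among NK-like cells, but 35 of 129 tumour-like epithelial cells in Con library 2 and 18 of 105 in mA1 library 2. Cells were clustered without the 9 genes. The classes carried their markers: Ncr1 stood at 1016 to 1139 CPM in the 1809 NK-like cells (Cd3e 0 to 13.8), Cd8a at 271 to 342 in the 676 effector CD8 T-like cells, and Trdc at 2622 to 3082 with Cd8a at 0 in the 264 gamma-delta T-like cells. Epcam stood at 647 to 831 CPM in the 763 tumour-like epithelial cells, in which Ptprc, the pan-leukocyte gene, was at 3.35 to 7.23.

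NK-like cells held most of the UMIs of Gzma, Prf1, Gzmb, Nkg7 and Fasl. They made up 7.61% of cells and held 93.6% of all 81466 Gzma UMIs, 88.8% of 7278 Prf1 UMIs, 81.0% of 6262 Gzmb UMIs, 65.0% of 33028 Nkg7 UMIs and 55.2% of 1461 Fasl UMIs. For Ifng their share was 38.7% of 1891 UMIs, with 16.4% in a small T cell cluster and 15.3% each in CD4 and effector CD8 T-like cells. The other granzymes were found elsewhere. Effector CD8 T-like cells held 66.7% of 475 Gzmk UMIs, tumour-like epithelial cells held 86.2% of 15816 Gzme UMIs, and a cluster of 21 lymphocytes held 54.0% of 509 Gzmc UMIs. Levels are in CPM, the UMIs of a gene divided by all UMIs of the class in that library and scaled to a total of 1000000, and since the classes come from clustering of the same cells, differences between them are given as values with no test.

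**Figure D1:**
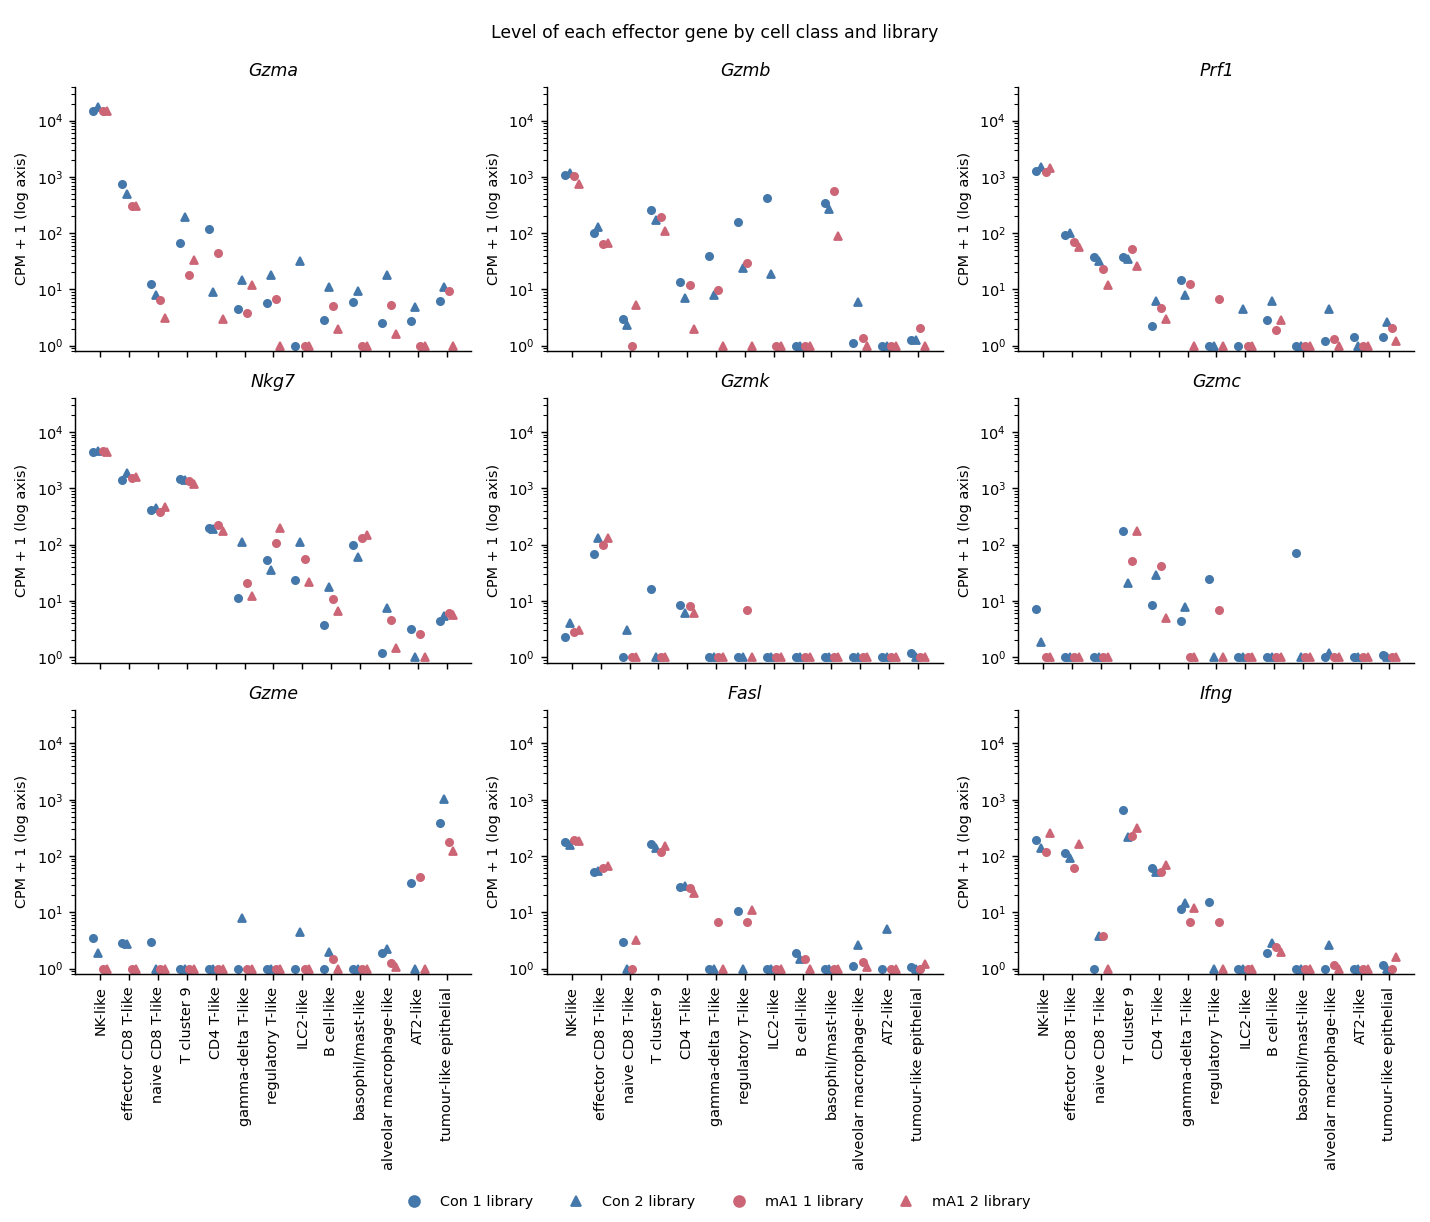
CPM + 1 of each of the 9 genes (log axis) by cell class, 1 point per library, Con and mA1 in separate colours and the library number by symbol. Among the 13 classes plotted, Gzma, Gzmb, Prf1 and Nkg7 were highest in NK-like cells in every library, Gzmk in effector CD8 T-like cells and Gzme in tumour-like epithelial cells, while small or unnamed clusters that are not plotted exceeded the latter pair in mA1 libraries.

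Gzma encodes granzyme A, a tryptase. In NK-like cells it stood at 14805 and 17625 CPM in Con libraries 1 and 2 and at 14822 and 14544 CPM in mA1 libraries 1 and 2. All 4 libraries lay close together, and the next class, the cycling lymphocytes, averaged 1047 ± 918 CPM (SD, n = 4 libraries). In effector CD8 T-like cells Gzma stood at 734 and 494 CPM in Con and 303 and 303 CPM in mA1, overlapping the cycling cells: in 3 libraries the cycling cells were higher and in mA1 library 2 they had 0 Gzma UMIs. Gamma-delta T-like cells gave 1 or 2 Gzma UMIs in each library. A Gzma UMI was found in 98.2% of NK-like cells and 17.5% of effector CD8 T-like cells, or 97.6% and 13.6% after every cell was thinned to 1000 UMIs. B cell-like cells, which lack the gene and so show the background of free RNA, gave 1.25% and, thinned, 0.598%, and gamma-delta T-like cells 1.89% and 1.54%. Median depths were 2401 UMIs in NK-like, 3826.5 in effector CD8 T-like, 3212.5 in gamma-delta T-like and 2330 in B cell-like cells. Thinning left out 33, 7, 4 and 52 shallower cells of these classes.

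Gzmb encodes granzyme B, the protease that activates caspases. NK-like cells had 1081 and 1163 CPM in Con and 1029 and 749 CPM in mA1. The classes that came next had no common order over the libraries. An unnamed T cell cluster led by interferon-stimulated genes averaged 325 ± 265 CPM (SD, over 3 libraries with at least 10 of its cells), basophil/mast-like cells 315 ± 195 CPM (n = 4 libraries; 342 and 270 CPM in Con and 559 and 87.9 CPM in mA1) and a T cell cluster led by Ifng and Klra9 182 ± 63.5 CPM (n = 4). Effector CD8 T-like cells had 99.4 and 129 CPM in Con and 62.4 and 66.7 CPM in mA1. They lay below basophil/mast-like cells in each library but above the interferon-led cluster in Con library 2 (39.9 CPM, 6 UMIs). In mA1 library 2 the basophil/mast-like value rests on only 3 UMIs in 10 cells, so the order there is uncertain. Gamma-delta T-like cells held 11 and 1 UMIs in Con and 3 and 0 in mA1. After thinning, 53.4% of NK-like, 8.82% of effector CD8 T-like and 1.54% of gamma-delta T-like cells had a Gzmb UMI (unthinned 74.4%, 16.7% and 1.89%). None of 2395 B cell-like cells had one, which allows a share of up to 0.125% of cells with a UMI at their median of 2330 UMIs, and says nothing of transcripts below that depth.

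Prf1 encodes perforin, without which granzymes do not reach their targets. It stood at 1259 and 1473 CPM in Con NK-like cells and at 1205 and 1446 CPM in mA1. Effector CD8 T-like cells had 90.2 and 101 CPM in Con and 69.7 and 54.6 CPM in mA1, and naive CD8 T-like cells averaged 25.4 ± 11.5 CPM (SD, n = 4). Gamma-delta T-like cells held 4 and 1 UMIs in Con and 4 and 0 in mA1. Thinned shares of cells with a Prf1 UMI were 70.5%, 8.82% and 1.15% in NK-like, effector CD8 and gamma-delta T-like cells, against 0.171% in B cell-like cells (unthinned 90.0%, 26.8%, 3.41% and 0.668%). In thinned NK-like cells all of Gzma, Gzmb and Prf1 were detected together in 39.6% and 46.2% of cells in Con and 36.3% and 32.2% in mA1. The same triple detection was seen in 2.04% and 2.29% of effector CD8 T-like cells in Con and in 0.654% and 0.935% in mA1, and none of the 3 in 72.5% to 85.0%.

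Nkg7 encodes a protein that helps granules to be released. NK-like cells had 4412 and 4605 CPM in Con and 4603 and 4421 CPM in mA1, and effector CD8 T-like cells 1406 and 1893 CPM in Con and 1523 and 1582 CPM in mA1. The Ifng-led T cluster, at 1350 ± 120 CPM (SD, n = 4), overlapped them, above them in Con library 1 and below in the other 3 libraries. Fasl stood at 176 and 157 CPM in Con and 192 and 181 CPM in mA1 NK-like cells. The Ifng-led T cluster was next at 141 ± 20.4 CPM (n = 4), overlapping the NK-like range over all libraries but below NK-like cells within each, and effector CD8 T-like cells held 57.5 ± 6.43 CPM, below both in every library. In gamma-delta T-like cells Fasl was at 0 UMIs in 3 libraries and 2 in the fourth, and Nkg7 at 10.3 and 111 CPM in Con and 20.1 and 11.1 CPM in mA1.

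Ifng had a different order. Among classes with at least 10 cells in each library its highest level was in the T cluster that it led (280 cells), with 657 and 213 CPM in Con and 224 and 313 CPM in mA1. NK-like cells followed with 193 and 140 CPM in Con and 115 and 253 CPM in mA1, and effector CD8 T-like cells with 114 and 92.1 CPM in Con and 61.0 and 162 CPM in mA1. The ranges of neighbours over the 4 libraries overlapped, but within each library these 3 classes kept this order. Cycling lymphocytes had no fixed place among them, at 256 and 22.7 CPM in Con and 70.7 and 53.8 CPM in mA1. They lay above NK-like cells in Con library 1, and above effector CD8 T-like cells there and in mA1 library 1. CD4 T-like cells, a tighter class for this gene, stood at 59.1 and 50.6 CPM in Con and 50.3 and 67.6 CPM in mA1. A thinned Ifng UMI was present in 12.2% of NK-like cells, 9.27% of effector CD8 T-like cells and 15.8% of the T cluster, against 0.128% of B cell-like cells (unthinned 22.8%, 22.5%, 38.9% and 0.334%).

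Gzmk encodes granzyme K, a tryptase like granzyme A, and most of its UMIs were in CD8 T cells. Its level in effector CD8 T-like cells was 68.1 and 132 CPM in Con and 95.8 and 129 CPM in mA1, while NK-like cells, in which the neighbouring gene Gzma stood at 14544 CPM or more, gave 1 and 7 Gzmk UMIs in Con and 2 and 1 in mA1. Cycling lymphocytes averaged 61.3 ± 44.8 CPM (SD, n = 4), above effector CD8 T-like cells in mA1 library 1 (102 CPM) and below them in the others, and CD4 T-like cells 6.18 ± 1.28 CPM. The thinned share with a Gzmk UMI was 11.8% in effector CD8 T-like cells and 0.113% in NK-like cells (unthinned 23.1% and 0.608%), and no B cell-like cell had one.

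Gzmc encodes granzyme C, a relative of granzyme B, and was concentrated in very few cells. Of the library totals of 214 and 101 UMIs in Con and 76 and 118 in mA1, a cluster of 4 to 6 lymphocytes per library held 153, 19, 12 and 91. Only 8 of its 21 cells had the gene, and single cells held up to 80 UMIs. Gzmc was itself the leading gene of that cluster, followed by Ccl1, Xcl1, Nrgn and Cd160, and the cluster stays unnamed: 14 of 21 cells had an Ncr1 UMI, 20 an Xcl1 UMI, 13 an Il7r UMI and 5 a Cd3e UMI. Beyond it, the Ifng-led T cluster had 172 and 19.7 CPM in Con and 51.0 and 173 CPM in mA1, and CD4 T-like cells 7.39 and 27.6 CPM in Con and 41.3 and 4.04 CPM in mA1. NK-like cells gave 5 and 2 Gzmc UMIs in Con and none in mA1.

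NK-like cells fell into 2 clusters with unequal shares in the libraries. Lymphoid cluster 2 held 84.0% and 21.8% of NK-like cells in Con libraries 1 and 2 and 71.4% and 66.9% in mA1 libraries 1 and 2, and lymphoid cluster 3 the rest. Cluster 3 had the higher Gzma level in every library, 19013 and 19204 CPM against 13920 and 12375 CPM in Con, and 18201 and 21401 CPM against 13482 and 11331 CPM in mA1. Prf1 was likewise higher there, at 1540 to 2191 CPM against 1073 to 1179 CPM, and Gzmb at 988 to 1432 CPM against 637 to 1063 CPM, cluster 3 above cluster 2 within each library. Ifng did not follow them: it was lower in cluster 3 in 3 libraries and nearly equal in mA1 library 1 (117 against 115 CPM). Con library 2 is the library in which cluster 3 dominated, at 78.2%, and its overall Gzma level of 17625 CPM was the highest.

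The genes whose levels ran most like a member's were sought over 82 sums of 21 classes and 4 libraries, as Pearson correlations of log2(CPM + 1). The sums share libraries and classes, so the values only describe. Gzma ran closest to the NK receptor genes Klre1 (r = 0.889), Klra9 (0.877) and Ncr1 (0.875). Prf1 ran closest to Eomes (0.854), a T-box transcription factor of NK and memory T cells, then Samd3 (0.845) and Klra7 (0.824). Ifng ran closest to Tbx21 (0.888), which encodes T-bet, then Klrc2 (0.867) and Gm33104 (0.854). The nearest genes of Gzmb were Sytl3 (0.817), Wdr95 (0.794) and Qrfp (0.762), and those of Gzme were Ifi27l2b (0.916), Gpa33 (0.912) and Atp2c2 (0.909).

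To test NK against T cells without clusters, single cells were gated by UMIs of receptor genes only, none of them a member: NK cells by Ncr1, Klrb1c or Klre1 without CD3, Cd4 or CD8 genes, CD8 T cells by CD3 and CD8 genes, and gamma-delta T cells by CD3 genes and Trdc. The gates held 1998, 1388 and 513 cells, of which 1968, 1384 and 511 had 1 hashtag and entered the sums of the 8 tumours. The CD8 gate did not separate naive from effector cells, and the clusters held 721 naive and 676 effector CD8 T-like cells. Naive CD8 T-like cells averaged 1.38 CPM of Ifng, 1.02 of Fasl, 6.55 of Gzma and 424 of Nkg7 (n = 4 libraries). Effector CD8 T-like cells averaged 107, 57.5, 459 and 1601 CPM. Differences from the CD8 gate are therefore not differences from effector cells alone. In the fit of edgeR over 8527 genes with the tumour as a block, 5 of the 7 members with enough counts were higher in gated NK than in gated CD8 T cells and 1 was lower at a Benjamini-Hochberg adjusted p under 0.05, while 42.3% of all genes passed (24.1% higher, 18.2% lower). Against gated gamma-delta T cells 6 of 7 were higher and none lower, and 34.3% of all genes passed (18.1% higher, 16.2% lower). The members' median log2 differences were 1.72 and 3.12, against 0.05 and 0.03 over all genes tested. The tumour sums of the NK gate also held 222 cells (11.3%) from clusters that were not lymphoid, with a median of 14693.5 UMIs against 2391.5, and these held 45.9% of the UMIs. The corresponding shares were 17.5% of UMIs in the CD8 gate and 8.89% in the gamma-delta gate. The gamma-delta gate was also wider than the gamma-delta T-like class, with 500 cells in lymphoid clusters against 264. Those gated cells averaged 324 CPM of Nkg7 and 114 of Gzma over 8 tumours, and the class 38.0 and 7.81 CPM over 4 libraries. Effector CD8 T-like cells had Trdc at 82.8 to 231 CPM, and which other T cells entered this gate was not tested. Gzmc and Gzme did not pass the filter on low counts. With no filter the log2 difference of Gzmc from CD8 T cells was 3.19 (edgeR adjusted p = 0.0131), with 19 of its UMIs from 1 Con tumour, and 1.72 with DESeq2 (adjusted p = 0.617). Gated NK cells held 1269 Gzme UMIs, 1223 of them in the 30 cells that entered no tumour sum and 5 in cells of lymphoid clusters. With libraries as samples, which take in those cells, Gzme differed from CD8 T cells by 7.06 (edgeR adjusted p = 7.07e-04). An added fit, chosen after seeing this, kept only gated cells of lymphoid clusters, and 45.6% and 36.4% of 6397 genes then passed. In it 6 of 7 members were higher and 1 lower than in CD8 T cells, beside 23.3% and 22.3% of all genes, and 6 were higher than in gamma-delta T cells, beside 17.4%.

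**Figure D2:**
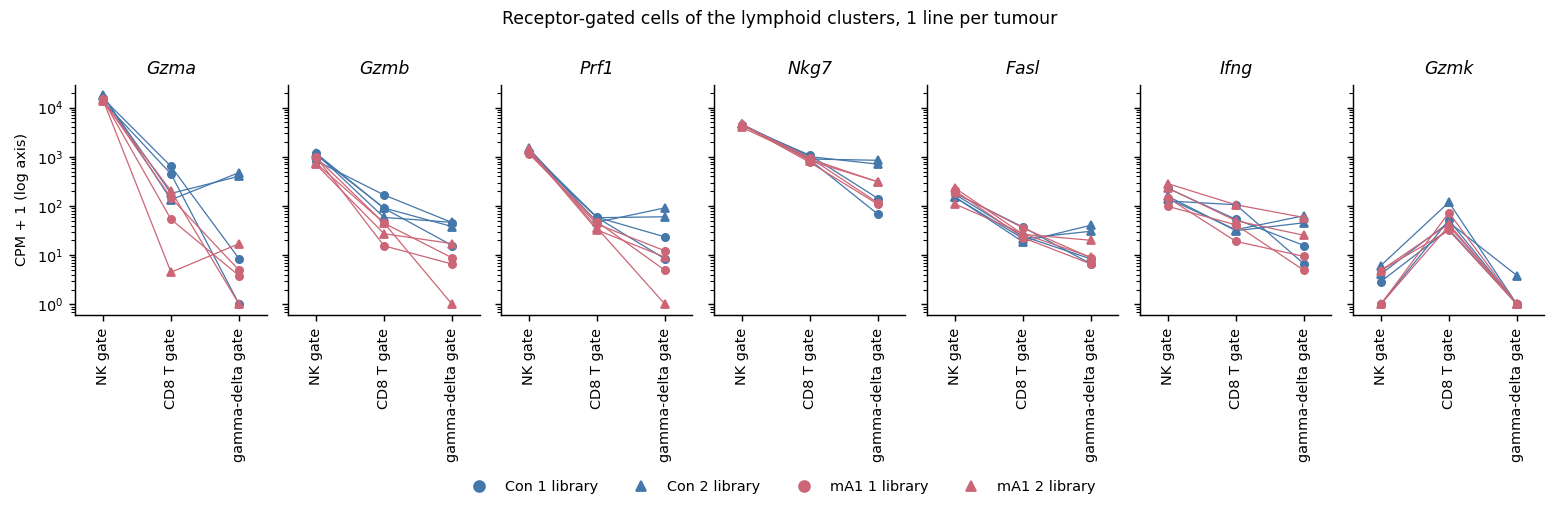
CPM + 1 (log axis) of the 7 tested genes in receptor-gated NK, CD8 T and gamma-delta T cells of the lymphoid clusters, 1 line per tumour. Every tumour's line for Gzma, Gzmb, Prf1, Nkg7 and Fasl falls from the NK gate to both T cell gates, and that for Gzmk is highest in the CD8 gate.

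Within the lymphoid clusters, Gzma ranged over the 8 tumours from 13603 to 17849 CPM (median 14741) in gated NK cells, from 3.51 to 637 CPM (median 162) in gated CD8 T cells and from 0 to 478 CPM (median 5.64) in gated gamma-delta T cells. No T cell value came near the NK range. The log2 difference from CD8 T cells was 5.46 ± 0.89 (SE, edgeR, adjusted p = 1.49e-04) with all gated cells and 5.999 ± 0.67 (1.99e-06) with the lymphoid ones. From gamma-delta T cells it was 6.88 ± 1.00 (6.72e-05) and 7.14 ± 0.77 (1.72e-06). Prf1 ranged from 1160 to 1492 CPM in gated NK, 31.6 to 58.0 in gated CD8 T and 0 to 91.0 CPM in gated gamma-delta T cells. Its log2 difference was 3.78 ± 0.28 (edgeR adjusted p = 3.17e-08) from CD8 and 4.78 ± 0.36 (4.41e-08) from gamma-delta T cells, and 4.43 ± 0.23 and 5.42 ± 0.30 within the lymphoid clusters. Gzmb, at 706 to 1190 CPM in gated NK, 14.5 to 167 in gated CD8 T and 0 to 45.5 CPM in gated gamma-delta T cells, did not overlap either. Its log2 differences were 3.11 ± 0.29 (edgeR adjusted p = 4.18e-07) and 4.72 ± 0.39 (1.66e-07), and 3.65 ± 0.24 and 5.42 ± 0.36 within the lymphoid clusters.

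Log2 differences between NK and CD8 T cells were smaller for Fasl and Nkg7. The CD8 gate, as said, did not separate naive from effector cells. Fasl ranged from 109 to 233 CPM in gated NK cells of the lymphoid clusters, 17.7 to 36.3 in gated CD8 T cells and 5.62 to 39.8 CPM in gated gamma-delta T cells, with log2 differences of 1.72 ± 0.23 (edgeR adjusted p = 1.40e-06) and 2.61 ± 0.33 (9.64e-07) over all gated cells. Nkg7 ranged from 3951 to 4645, 765 to 1070 and 66.4 to 847 CPM. Its difference from CD8 T cells was 1.23 ± 0.35 (edgeR adjusted p = 0.0107) over all gated cells and 1.89 ± 0.30 (8.76e-05) within the lymphoid clusters. Over all gated cells it was lost without mA1 library 2 (1.19, adjusted p = 0.0658). Ifng was the 1 member whose call turned on the gate. At 97.7 to 284 CPM in gated NK and 18.1 to 105 CPM in gated CD8 T cells of the lymphoid clusters, the groups overlapped slightly, and the log2 difference was 0.78 ± 0.32 (edgeR adjusted p = 0.0625) over all gated cells and 1.45 ± 0.25 (1.94e-04) within the lymphoid clusters. Without Con library 1 the all-cell difference passed as well, at an adjusted p of 0.0478. From gamma-delta T cells (3.91 to 62.6 CPM) it was higher in NK cells by 1.80 ± 0.46 (0.00600).

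Gzmk ran the other way. It stood at 30.8 to 118 CPM in gated CD8 T cells of the lymphoid clusters against 0 to 5.12 CPM in gated NK cells, a log2 difference of -5.15 ± 0.30 (edgeR adjusted p = 3.84e-15) over all gated cells and -4.66 ± 0.27 within the lymphoid clusters. Gated NK and gamma-delta T cells both had almost none and gave 1.01 ± 1.04 (0.504). Among 5 further granzyme paralogues only Gzmm had enough counts, and it was lower in NK than in CD8 T cells as well (-2.54 ± 0.22, and -1.99 ± 0.20 within the lymphoid clusters), with no call against gamma-delta T cells (-0.33 ± 0.39, adjusted p = 0.625). Between these gates, Gzmk and Gzmm were higher in CD8 T cells and Gzma and Gzmb in NK cells.

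Related genes were followed by list, and each pair of log2 differences gives all gated cells first and the lymphoid clusters second. Over all gated cells, 24.1% of all genes were higher and 18.2% lower in NK than in CD8 T cells. Against gamma-delta T cells the shares were 18.1% and 16.2%. Within the lymphoid clusters, 23.3% were higher and 22.3% lower than in CD8 T cells. Against gamma-delta T cells 36.4% of all genes passed there, 17.4% of all genes being higher and the rest of the 36.4% lower. The lists were not tested as sets. Of 12 genes tested that load and release granules, 8 were higher and 0 lower in gated NK than CD8 T cells (median log2 0.45), and 6 higher and 0 lower within the lymphoid clusters (median 0.42), where the calls of Lamp1, Lamp2 and Ap3b1 were lost. Ctsc, the cathepsin that activates granzyme precursors, was higher by 1.70 over all gated cells and 1.02 within the lymphoid clusters, Ctsw by 0.43 and 1.07, the cystatin gene Cst7 by 0.39 and 0.99, the fusion gene Stx11 by 1.34 and 2.33 and Sytl2 by 1.13 and 1.84. Against gamma-delta T cells 4 were higher and 2 lower, and 5 higher and 1 lower within the lymphoid clusters. Srgn, the proteoglycan on which granzymes are stored, was the lower one in both (-0.90 and -0.62). Among inhibitors of granzymes, Serpinb9, the granzyme B inhibitor that protects killer cells from their own granules, was higher in NK than in CD8 T cells by 3.13 and 3.84, Serpinb9b by 7.76 and 7.99 and Serpinb6b by 2.16 and 2.95. Altogether 4 of 5 were higher over all gated cells (median 2.16), but within the lymphoid clusters 3 were higher and 1 lower, with Serpinb1a at 0.81 in the first and -2.02 in the second. Against gamma-delta T cells 3 were higher and 1 lower, and 3 higher and 2 lower within the lymphoid clusters, with Serpinb1a at -2.60 and -5.94.

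The counts that follow stand beside 24.1% of all genes higher and 18.2% lower than in CD8 T cells (23.3% and 22.3% within the lymphoid clusters). Against gamma-delta T cells these shares were 18.1% and 16.2% over all gated cells. Within the lymphoid clusters 36.4% of all genes passed against gamma-delta T cells, 17.4% being higher and the rest of the 36.4% lower. Among 9 tested genes of death ligands and receptor machinery, 2 were higher and 3 lower than in CD8 T cells, and 3 higher and 4 lower of 8 within the lymphoid clusters. Lower were Lta, a lymphotoxin gene (-3.41 and -3.83), Tnfsf10, which encodes TRAIL (-1.98 and -1.63), and the receptor gene Fas (-1.46 and -2.34). Tnf passed within the lymphoid clusters only (-0.995 and -2.52). Tnfrsf1a (1.16 and 1.37) and Casp8 (0.34 and 0.35) were higher. Against gamma-delta T cells 3 were higher and 3 lower in both fits, Lta at -5.68 and -6.10 and Bid at 1.79 and 2.37. In the interferon-gamma list 3 of 9 genes were higher and 3 lower than in CD8 T cells, and 2 and 2 of 7 within the lymphoid clusters. The receptor gene Ifngr1 was higher (0.54 and 1.11) and Gbp2 was lower (-0.82 and -1.19). Against gamma-delta T cells 2 were higher and 4 lower, and 2 and 3 within the lymphoid clusters, with Jak1 at 0.60 and 1.25 and Socs1, a brake on the receptor, at -2.05 and -1.54.

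Of 12 effector transcription factors, 7 were higher and 3 lower in NK than in CD8 T cells (median log2 1.14), and 8 higher and 3 lower within the lymphoid clusters. The shares of all genes were 24.1% higher and 18.2% lower over all gated cells, and 23.3% and 22.3% within the lymphoid clusters. Against gamma-delta T cells they were 18.1% and 16.2% over all gated cells. Within the lymphoid clusters 36.4% of all genes passed against gamma-delta T cells, 17.4% being higher and the rest of the 36.4% lower. Zeb2 was higher by 2.62 and 3.34, Tbx21 by 2.15 and 2.76, Prdm1 by 1.98 and 2.63 and Eomes by 1.24 and 1.82, while Batf was lower (-0.62 and -0.61). Against gamma-delta T cells 6 were higher and 3 lower, and 7 and 2 within the lymphoid clusters, Eomes at 3.43 and 4.23. Among 9 activating cytokine receptors 4 were higher and 3 lower than in CD8 T cells in both fits. Il12rb2, the interleukin-12 receptor chain, was higher by 4.50 and 5.06, Il18rap by 2.21 and 2.85 and Il2rb by 1.08 and 1.73, and Il7r (-4.60 and -4.73) and Il21r (-2.48 and -2.57) were lower. Against gamma-delta T cells 3 were higher and 6 lower, and 3 and 5 within the lymphoid clusters. Il12rb2, Il18rap and Il2rb were again the higher ones, at 3.53, 1.95 and 0.88 over all gated cells.

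The study's comparison, mA1 against Con tumours, was then made within classes over 4 tumours per group. No member passed in NK-like cells, in CD8 T-like cells (naive and effector together) or in effector CD8 T-like cells, with 6, 7 and 7 members tested. Of all genes, 0.293% passed in NK-like cells (17 of 5811 by edgeR), 0.0902% in CD8 T-like cells (5 of 5541) and 0.0% in effector CD8 T-like cells (0 of 3471, with 315 at an unadjusted p under 0.05 and 1 called by DESeq2). In NK-like cells of Con tumours Gzma stood at 13332 and 15553 CPM in the tumours of library 1 and 17778 and 17128 CPM in those of library 2, and in mA1 tumours at 14967, 14696, 14230 and 14889 CPM. The mA1 values lay inside the Con range, and the log2 difference (mA1 minus Con) was -0.09 ± 0.09 (SE, edgeR adjusted p = 0.811). For Gzmb the Con tumours had 839, 1204, 1175 and 1094 CPM and the mA1 tumours 1025, 1033, 761 and 736 CPM, overlapping, with a difference of -0.25 ± 0.11 (0.452). It was -0.19 in lymphoid cluster 2 alone and 0.02 in lymphoid cluster 3 alone.

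The other members were as close in NK-like cells. Prf1 had 1252, 1261, 1493 and 1401 CPM in Con and 1211, 1201, 1506 and 1380 CPM in mA1 tumours, and a log2 difference of -0.01 ± 0.10 (edgeR adjusted p = 0.985). Nkg7 differed by 0.04 ± 0.09 (0.928), Fasl by 0.22 ± 0.14 (0.639) and Ifng by 0.09 ± 0.41 (0.981). Groups overlapped for all 6 members, as they did for all but 4.61% of genes tested. The members' median was 0.02, against 0.01 over all genes. No gene passed in the 6 related lists that could be tested, whose medians ran from -0.33 (granzyme inhibitors, 4 tested) to 0.29 (death ligands, 4 tested).

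**Figure D3:**
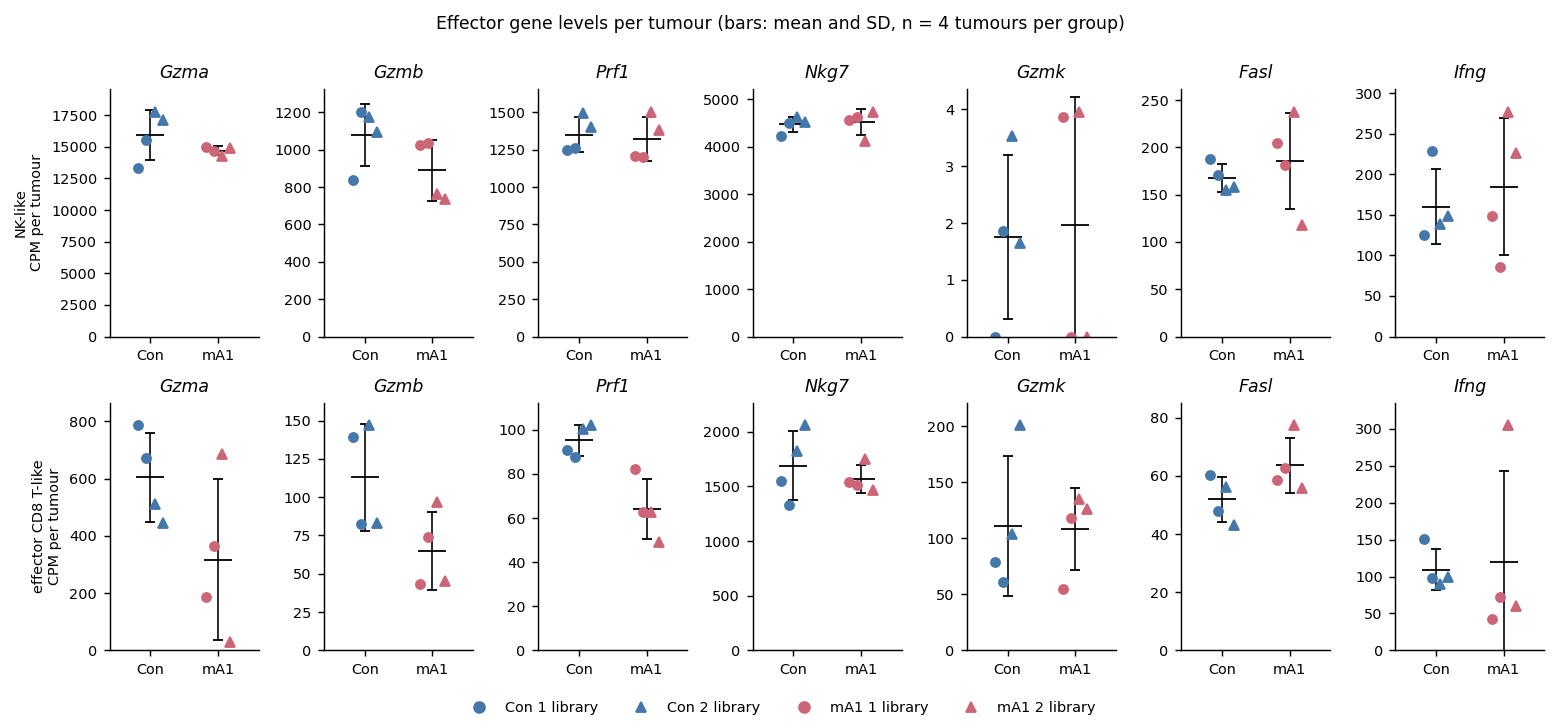
CPM per tumour of effector genes in NK-like and effector CD8 T-like cells, Con and mA1 side by side, 1 point per tumour with the mean and SD of 4 tumours as bars and the library by symbol. NK-like values overlap for every gene, and for Prf1 in effector CD8 T-like cells the Con tumours (87.6 to 102 CPM) lie above the mA1 tumours (48.9 to 82.2 CPM).

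Effector CD8 T-like cells, with 49 to 188 cells per tumour, gave lower mean levels of Prf1, Gzmb and Gzma in the mA1 group, and none of these differences passed. Prf1 stood at 90.7, 87.6, 100.4 and 102 CPM in Con tumours and at 82.2, 62.6, 62.9 and 48.9 CPM in mA1 tumours. The groups did not overlap, as was so for 4.26% of tested genes with mA1 lower, and the log2 difference was -0.50 ± 0.21 (edgeR adjusted p = 0.449). In all CD8 T-like cells Prf1 ranged from 60.8 to 72.2 CPM in Con and from 31.2 to 45.4 CPM in mA1 (-0.53 ± 0.19, adjusted p = 0.267), with 4.85% of genes lower in mA1 without overlap. Gzmm, the paralogue outside the members, had 96.7, 117, 77.1 and 133 CPM in Con and 54.8, 64.9, 67.7 and 42.0 CPM in mA1 effector cells, again without overlap (-0.73 ± 0.23, 0.262). Gzmb had 139, 82.3, 147 and 83.5 CPM in Con and 43.1, 74.2, 96.7 and 45.5 CPM in mA1 effector cells, overlapping through 1 mA1 tumour (-0.75 ± 0.24, 0.262). Without Con library 1 it passed, at -0.79 and an adjusted p of 0.0318, a fit in which 145 genes were called.

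For Gzma in effector CD8 T-like cells, Con tumours had 786, 672, 513 and 445 CPM and mA1 tumours 188, 366, 687 and 28.0 CPM, so 1 mA1 tumour lay within the Con range and another far below it (-0.86 ± 0.69, edgeR adjusted p = 0.767). Ifng stood at 151, 98.3, 89.4 and 98.9 CPM in Con and 43.1, 71.9, 305 and 59.4 CPM in mA1 tumours, where the first tumour of mA1 library 2 was far above the rest (0.16 ± 0.64, 0.962). Gzmk (0.06), Nkg7 (-0.02) and Fasl (0.36 ± 0.25, 0.675) did not pass, and the members' median was -0.02 against -0.01 over all genes. Whether the difference between groups itself differed between NK-like and CD8 T-like cells was tested as an interaction in edgeR: 7 of 7183 genes (0.0975%) and no member passed. For Prf1 the interaction was 0.45 ± 0.19 (adjusted p = 0.697). In gamma-delta T-like cells, compared over 2 libraries per group, no member had enough counts to be tested, and edgeR called 0 of 3307 genes (0.0%, with 135 at an unadjusted p under 0.05 and 0 by DESeq2).

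Gzme encodes granzyme E, a member of the granzyme B-like group found in mouse and known from activated lymphocytes, and here it was an epithelial transcript. The tumour-like epithelial cells held 4727 and 7645 Gzme UMIs in Con libraries 1 and 2 and 658 and 606 in mA1 libraries 1 and 2. That is 380 and 1037 CPM in Con and 174 and 120 CPM in mA1, while all NK-like cells together gave 4 Gzme UMIs. A Gzme UMI was present in 48.3% (Wilson 95% interval 43.6 to 53.0) and 69.0% (60.6 to 76.3) of tumour-like cells in Con, and in 33.7% (25.1 to 43.5) and 27.6% (19.97 to 36.8) in mA1. Intervals cover counting error only. Thinned to 1000 UMIs per cell, the shares were 13.5% and 36.4% in Con and 10.2% and 9.62% in mA1. B cell-like cells gave 0.125%, or 0 after thinning, at a median of 2330 UMIs against 30657 in the tumour-like cells.

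The transcript was unevenly spread among tumour cells. Single cells held up to 703 Gzme UMIs, and the tenth of tumour-like cells with the most held 77.7% and 62.3% of the library's Gzme in Con and 88.9% and 91.3% in mA1. Cells with Gzme had no more of the leukocyte gene Ptprc than cells without: 4.45 against 11.3 CPM and 3.81 against 11.9 CPM in Con, 3.64 against 3.74 CPM and 0 against 4.99 CPM in mA1. Killer cell transcripts were uneven: in mA1 library 1 the 33 cells with Gzme held 30 Gzma, 4 Prf1 and 4 Gzmb UMIs against 1, 0 and 0 in the 65 cells without, whereas in Con the cells with Gzme held 7 and 29 Gzma UMIs against 59 and 45. Their part in the Gzme values was not tested. Tumour-like cells held 9 Gzmb UMIs and 1 Gzmc UMI in all. By epithelial cluster, epithelial cluster 4 was highest in Con, at 574 and 1362 CPM, and in mA1 library 1, at 453 CPM. In mA1 library 2 it had 239 CPM, below the 501 CPM of epithelial cluster 9, a tumour-like cluster with 5 cells there. Epithelial cluster 9 had 0 CPM in its 8 cells of mA1 library 1. Epithelial cluster 4 held 91 of the 129 tumour-like cells in Con library 2. Epithelial cluster 2 had 461 and 225 CPM in Con and 132 and 94.4 CPM in mA1, and epithelial cluster 1 had 344 and 18.2 CPM in Con and 13.7 and 66.6 CPM in mA1. AT2-like cells, the surfactant-rich alveolar type, averaged 18.6 ± 21.8 CPM (SD, n = 4 libraries). Epithelial cluster 3, which carried more AT2 than tumour markers and was left out of the class, had 223 ± 143 CPM. A shallow unnamed cluster with surfactant and gastric genes (median 733.5 UMIs) ranged from 68.4 to 1051 CPM on 199 UMIs.

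**Figure D4:**
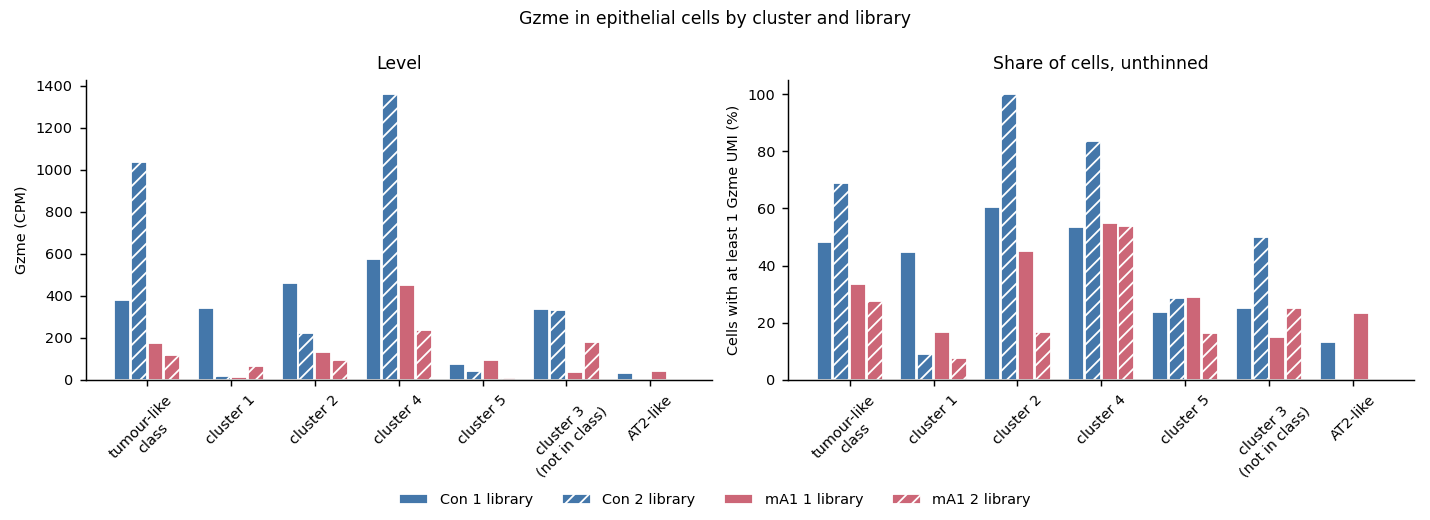
Gzme by epithelial cluster and library, as CPM and as the share of cells with a UMI, bars coloured by group and hatched by library number. Epithelial cluster 4 of Con library 2 (1362 CPM) is the tallest CPM bar. In CPM, both mA1 libraries lie below both Con libraries in clusters 2 and 4. The share of cells with a UMI in cluster 4 overlapped, at 53.3% in Con library 1 against 55.0% and 53.8% in mA1 libraries 1 and 2.

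The 2 Con libraries did not overlap the 2 mA1 libraries in Gzme, as was so for 40.1% of the 11365 genes tested in tumour-like cells (21.4% with mA1 lower). The log2 difference was -2.28 ± 0.56 (SE, edgeR, unadjusted p = 0.0132, adjusted p = 0.400) and did not pass. By the same test 0.114% of genes passed (13, 8 higher and 5 lower), none of them a member. The size of the difference turned on the libraries: it was -2.85 without Con library 1 and -1.35 without Con library 2, the extremes of the leave-one-out fits. In these fits the lone Con library is taken to vary like the mA1 ones, so only the differences are given. Without Con library 1, only the library high in Xist stands for Con, and group, library and the Xist difference cannot be told apart. With no filter on low counts the log2 difference was -2.31 (edgeR adjusted p = 2.19e-04). Without the cells of shared barcodes, Gzme stood at 356 and 721 CPM in Con and 199 and 132 CPM in mA1, and the difference was -1.72 ± 0.40 (edgeR adjusted p = 0.395). In Con library 2 the 35 cells of shared barcodes held 4944 of its 7645 Gzme UMIs. Tumours varied within libraries as well: hashtag 1 and hashtag 2 cells had 94.5 and 451 CPM in Con library 1, 520 and 1024 CPM in Con library 2, 493 and 124 CPM in mA1 library 1, and 178 and 80.6 CPM in mA1 library 2. These sums hold 6 to 58 cells each. Most tumour-like cells had no hashtag and entered none of them: 352 of 431 and 104 of 129 in Con, 73 of 98 and 70 of 105 in mA1. Those cells had 386 and 1114 CPM in Con and 162 and 112 CPM in mA1, and their tumours are not known. Among the hashtagged cells, the mA1 tumour at 493 CPM (6 cells) lay above both tumours of Con library 1, so the groups overlapped. The other 2 members tested in these cells, Nkg7 (0.31) and Gzma (-1.01), had 3.46 to 5.03 CPM and 0 to 10.0 CPM.

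Neighbours of Gzme on chromosome 14 were also detected in tumour-like cells. The list of 15 genes from Cma1 to Gzmb was chosen after the values were seen and has no test. In tumour-like cells Mcpt8, which encodes a protease known from basophils, stood at 95.7 and 251 CPM in Con and 116 and 72.8 CPM in mA1. Mcpt1 had 97.0 and 152 CPM in Con and 111 and 75.1 CPM in mA1, and Mcpt2, like it a mast cell protease of the mucosal kind, 89.9 and 159 CPM in Con and 19.9 and 32.9 CPM in mA1. Most cells with these genes also had Gzme: 196 of 251 with Mcpt8, 94 of 103 with Mcpt1 and 127 of 131 with Mcpt2, against 359 of all 763. Cells with Gzme were also deeper in each library, at medians of 31208.5 against 19957 and 54450 against 37903 UMIs in Con and 33665 against 29884 and 51841 against 38051.5 in mA1, and the part of depth in this co-detection was not tested. Gzmd gave 97 UMIs in 6 cells, all of which had Gzme, and since the pair are near-identical, reads could be split between them and the Gzmd count is uncertain. Gzmg and Gzmf gave 0 UMIs. In NK-like cells the genes at the ends of the cluster were detected, Gzmb and the chymase gene Cma1, the latter at 580 and 699 CPM in Con and 515 and 469 CPM in mA1, with the genes between at 7 UMIs or fewer each. Basophil/mast-like cells had Mcpt8 at 1227 and 869 CPM in Con and 1923 and 2667 CPM in mA1, together with Gzmb, Ctsg at 19.6 to 118 CPM and no Gzme. In Con library 2 alone they also had Cma1 at 1206, Mcpt1 at 692 and Mcpt2 at 430 CPM, against at most 21.5 CPM of these 3 genes in the other libraries.

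**Figure D5:**
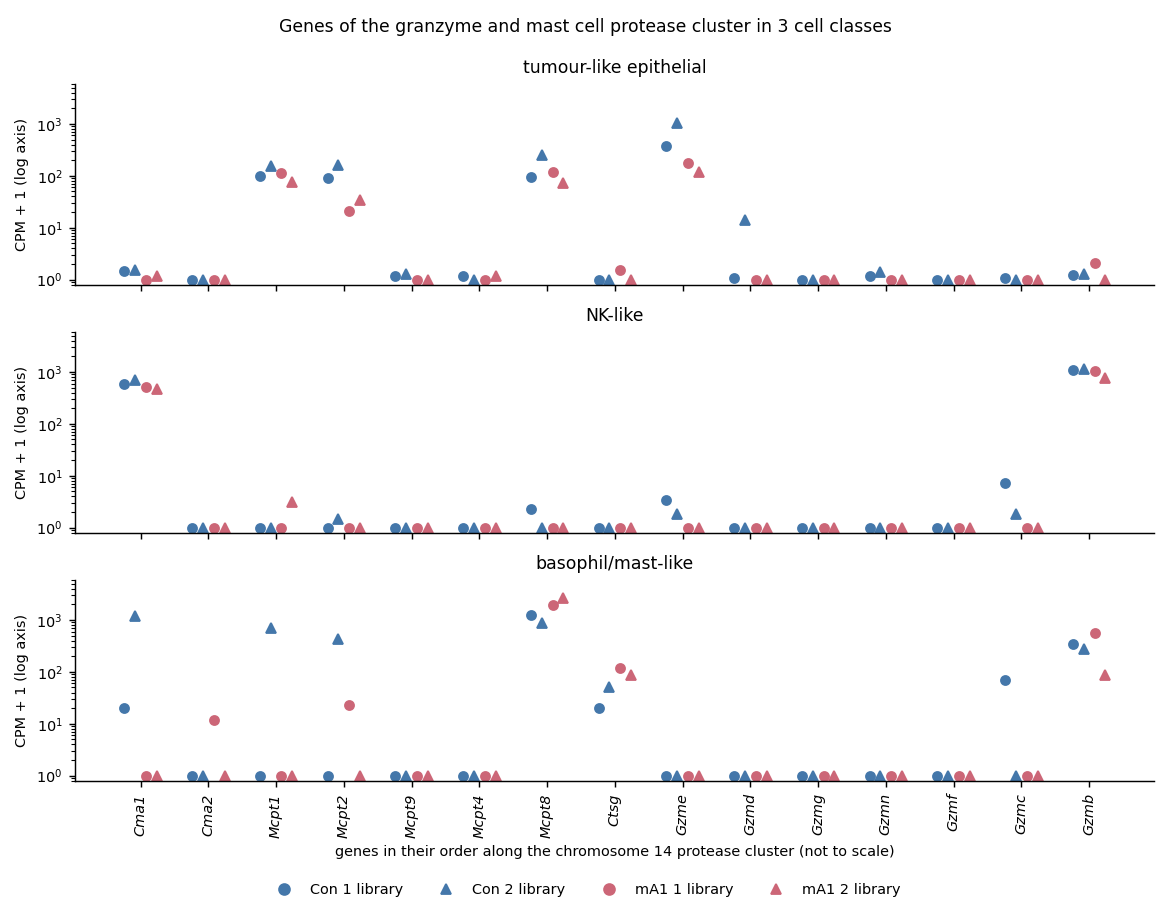
CPM + 1 (log axis) of the 15 genes of the chromosome 14 protease cluster in gene order, in tumour-like epithelial, NK-like and basophil/mast-like cells, 1 point per library. Tumour-like cells have Mcpt1, Mcpt2, Mcpt8 and Gzme, NK-like cells Cma1 and Gzmb, and basophil/mast-like cells Mcpt8, Gzmb and Ctsg, with Cma1, Mcpt1 and Mcpt2 also high in those of Con library 2.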

How the data were processed

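The 4 gene count matrices, with hashtag antibody counts in the same files, were used as deposited: whole UMI counts per gene and cell that the authors made with Cell Ranger 6.0.1 on mm10, per the submitters' processing notes, from 10x 3' version 3 libraries per the labels' protocols. Cells with at least 500 UMIs, 250 genes and at most 15% mitochondrial UMIs were kept. Hashtags were called by a mixture of 2 Gaussians per hashtag, which gave 1 hashtag to 86.1% to 90.7% of cells. Cells with both hashtags (112 to 302 per library) and Scrublet calls (65, 0, 174 and 29) were removed; the caller marked no cell in Con library 2 and so did not work there. Clustering (scanpy 1.11.5, Leiden, resolution 1) left out the 9 genes, all granzymes, Malat1 and sex-linked, mitochondrial and ribosomal genes, and clusters were named from fixed markers. A named class needed markers among its leading genes; other clusters are called by number.

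Counts were summed per tumour (1 hashtag of 1 library) and class, or per library where a tumour held under 20 cells of a class (gamma-delta T-like) and for epithelial cells. They were tested with edgeR 4.0.16 (TMM, filterByExpr, quasi-likelihood, two-sided, Benjamini-Hochberg over all genes tested, called under 0.05). DESeq2 1.42.0, no filter on low counts, other hashtag calls, more doublets removed, libraries as samples, a replicate block and leaving out libraries or tumours were alternatives. The tumours of a library share its capture and sequencing. On simulated counts for NK-like cells (5809 genes), edgeR recovered 36% of genes changed by log2 1 and 99% of those changed by log2 2, with 2.88% false calls. There the changed genes were drawn from genes with high counts only, and all genes had the same dispersion. Tumours were simulated as independent of their library, so the rates do not cover genes with low counts or shared library effects. Genes named are the 9 members throughout, the passing genes of 7 fixed lists (up to 8 per list by smallest p, of which the largest are given) and the 3 genes most alike for 5 members, among genes at 10 CPM or more in at least 1 sum. Members and lists were chosen with earlier results of these data known. Sequences and positions are RefSeq's for GRCm38.p6; all 9 members matched. Thinning drew 1000 UMIs per cell.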

Additional observations from a re-analysis of the deposited data

Results flagged for a closer look

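Over 40 groups of 4 tumours (members by class and group), 5 had 1 tumour far from the other 3 by Dixon's test, where chance flags about 1 in 20 groups. Of these, 4 concerned Ifng. In CD8 T-like cells the first tumour of Con library 1 had 100.2 CPM against 40.4 to 46.0 CPM in the other Con tumours, and the first tumour of mA1 library 2 had 153 CPM against 23.6 to 36.0 CPM. In effector CD8 T-like cells the same tumours stood at 151 CPM (others 89.4 to 98.9) and 305 CPM (others 43.1 to 71.9), and these cells are part of the CD8 T-like class, so the flags are not independent. The fifth was Prf1 in CD8 T-like cells of the same Con tumour, at 72.2 CPM against 60.8 to 62.3 CPM.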

How the results depend on the processing

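Of 44 members' values, the alternatives gave 282 further values, of which 265 kept direction and side of the threshold, and leaving out libraries or tumours gave 336, of which 294 did. NK-like cells had 17 genes called between mA1 and Con, against 8 with DESeq2, 39 with no filter, 3 with libraries as samples, 0 by the receptor gates and 3 in lymphoid cluster 2 alone, and 4 to 173 over leave-one-out fits. CD8 T-like cells had 5, against 3, 21, 0 and 0 under the first 4 of these, and 2 to 196. Effector CD8 T-like cells had 0, against 1 with DESeq2, 8 with no filter, 1 with hashtags called at 80%, 1 without shared barcodes, and 0 to 145. Gamma-delta T-like cells had 0, against 1 by the gates, and 0 to 15. Tumour-like epithelial cells had 13, against 99 with DESeq2, 428 with no filter, 67 without cells holding an immune UMI, and 9 to 150. The interaction had 7, against 0 with DESeq2, 13 with no filter, and 0 to 20. The gate comparisons had 3609 and 2921, and 2560 to 3337 and 2014 to 2597 over leave-one-out fits. The largest leave-one-out counts (173, 196, 145, 150 and 15) came without Con library 1. The causes were not tested.

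The replicate block by library number called 16 genes in NK-like, 11 in CD8 T-like, 23 in effector CD8 T-like, 0 in gamma-delta T-like and 95 in tumour-like epithelial cells. Deviations of same-numbered libraries correlated at 0.02, -0.03, -0.04 and -0.07 in the NK-like, CD8 T-like, effector CD8 T-like and epithelial sums, so the number does not pair them. Under the block Nkg7 in effector CD8 T-like cells was 0.0019, and 0.020 with no filter, from -0.02.

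No called member reversed. Uncalled mA1 against Con values changed sign by the gates (NK-like Fasl -0.092, Nkg7 -0.25 and Ifng -0.075, CD8 T-like Nkg7 -0.070 and Gzmk -0.26), in lymphoid cluster 2 alone (Ifng -0.18), in lymphoid cluster 3 alone (Nkg7 -0.023, Prf1 0.18, Gzma 0.059 and Gzmb 0.017) and for the interaction of Ifng with DESeq2 (0.16). Leave-one-out values crossed 0 in NK-like cells for Prf1 (-0.17 to 0.14), Ifng (-0.45 to 0.72) and Gzma (-0.19 to 0.011), in CD8 T-like cells for Nkg7 (-0.052 to 0.14), Ifng (-0.53 to 0.94) and Gzmk (-0.092 to 0.67), in effector CD8 T-like cells for Nkg7 (-0.15 to 0.15), Ifng (-0.66 to 0.81) and Gzmk (-0.21 to 0.71), in epithelial cells for Gzma (-8.97 to 0.067), and for the interaction for Nkg7 (-0.13 to 0.087), Ifng (-0.28 to 0.027) and Gzmb (-0.10 to 0.63). Of called gate values, Nkg7 against CD8 T cells was lost with libraries as samples (1.03, edgeR adjusted p = 0.173).

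Gzmc and Gzmk in NK-like cells and all members in gamma-delta T-like cells rest on 0 to 16 UMIs per library. With 2 libraries or 4 tumours per group, small changes were not detectable. The 80% hashtag and libraries-as-samples settings were not run for gamma-delta T-like cells, whose samples were the libraries. Lone libraries in an arm are assumed to vary like the other group. The lymphoid gates, the NK clusters taken alone, the wider epithelial class and the removal of shared barcodes were chosen after seeing the data.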
